A study of Mus musculus with 6 samples.

Results

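Epithelial and mesenchymal cells differ in how they hold on to each other, and a small set of genes marks the change from one state to the other. The genes described here are the transcription factor genes Snai1, Snai2, Zeb1, Zeb2, Prrx1 and Foxc2, the classical cadherin genes Cdh1, Cdh2 and Cdh11, and the epithelial adhesion gene Epcam. They were found as every non-control probe whose RefSeq accession on the array belongs to one of these genes. That gave 14 probes for 10 genes, out of 39429 probes and 20659 named genes on the array.

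The RNA came from C2C12, an established mouse myoblast line that fuses into myotubes when serum is withdrawn. The study set 3 single-colour Agilent arrays of cells given siRNA-MEG3, which targets Meg3, a long RNA without a protein product, against 3 arrays of cells given siRNA-NC, a negative control. The labels call the arrays of a group biological replicates. Both groups were grown in DMEM with fetal bovine serum and transfected with lip3000, a lipid reagent, before they were confluent, per the labels' protocols. How long after transfection the RNA was taken is not stated in the labels, and C2C12 is a single cell line.

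Snail factors (Snai1, Snai2) and ZEB factors (Zeb1, Zeb2) are zinc finger repressors that bind E-box sequences and are known for switching off Cdh1, which encodes E-cadherin, the adhesion molecule of epithelial sheets. The switch is often read as a fall of E-cadherin and a rise of N-cadherin, encoded by Cdh2, or of cadherin-11, encoded by Cdh11, a cadherin of mesenchyme and bone-forming cells. Skeletal myoblasts are mesenchymal cells to begin with: N-cadherin is one of the molecules through which they make contact before fusion, and Snail and ZEB factors are known in mouse myoblasts to occupy E-boxes that myogenic factors use later. Prrx1, a homeobox factor of limb mesenchyme, and Foxc2, a forkhead factor of mesoderm, complete the set.

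The letters these repressors read are shown on the promoters of a repressor gene and of an epithelial gene. The windows below hold the 250 bases before the RefSeq transcription start in GRCm38.p6, written 5′ to 3′ on the gene's own strand, which is the plus strand for both genes. Capitals mark CAGGTG or its reverse complement CACCTG, the E-box form that Snail and ZEB factors prefer.
Snai1, chr2:167537945-167538194: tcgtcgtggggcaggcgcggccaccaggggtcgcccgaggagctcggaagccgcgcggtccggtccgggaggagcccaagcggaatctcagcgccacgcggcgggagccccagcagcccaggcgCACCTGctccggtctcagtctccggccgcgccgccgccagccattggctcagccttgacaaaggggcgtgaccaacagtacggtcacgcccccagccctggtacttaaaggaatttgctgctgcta
Epcam, chr17:87635729-87635978: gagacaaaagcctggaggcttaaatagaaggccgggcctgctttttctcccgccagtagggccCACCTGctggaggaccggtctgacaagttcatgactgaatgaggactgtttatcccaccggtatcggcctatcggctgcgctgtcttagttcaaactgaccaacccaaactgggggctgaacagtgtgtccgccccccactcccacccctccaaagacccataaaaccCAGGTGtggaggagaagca

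The Snai1 window held 1 such box, beginning at base -126 from the start, and the Epcam window held 2, beginning at bases -187 and -19. Windows of the same length held CAGGTG on either strand in 17.22% of 32851 promoters, and the general E-box CANNTG, which includes CAGGTG, in 66.22%. RefSeq windows were used for 4 of the 10 genes, and Zeb1 and Cdh2 were left out of this description by choice. Snai2, Foxc2, Cdh1 and Cdh11 had no usable window. The single Prrx1 window and the 4 Zeb2 windows had no CAGGTG and no CANNTG. A match is a description of the letters and not a measured site.

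Some arrays could not be counted as separate samples. Among probes printed 10 times, the deviations of single spots from their probe's mean followed each other on arrays 1 and 3 of siRNA-MEG3 (r = 0.98 over 238 probes), while the pairs with siRNA-MEG3 array 2 gave r = -0.12 and -0.15. The log2 difference between siRNA-NC arrays 1 and 3 had an SD of 0.065 over such probes, while for siRNA-NC arrays 1 and 2 it was 0.53. By spot deviations siRNA-NC arrays 1 and 3 did not stand out (r = 0.47). The pairs with siRNA-NC array 2 gave r = 0.48 and 0.53. Arrays 1 and 3 of each group were averaged, so that 2 samples stood for each group. Arrays 1 and 2 of siRNA-MEG3 also lay close to each other (SD 0.13), so p-values measure a spread that may be technical. siRNA-NC array 2 stood apart: 188 of 26348 tested probes read more than 4-fold above the mean of siRNA-NC arrays 1 and 3, and 32 read more than 4-fold below. Its 75th percentile of processed signal was 2266, against 1168 to 1283 on the other 5 arrays, and 62.8 to 75.2% of spots per array were well above background. Per the file headers, the siRNA-NC arrays were read in 1 scan and the siRNA-MEG3 arrays in 2 later ones, with siRNA-MEG3 arrays 1 and 3 at the same position in different scans. No scan held both groups, so scan and siRNA cannot be told apart. Meg3 was too dim to check the labels: none of its 3 probes was well above background on a siRNA-MEG3 array, and 1 was on siRNA-NC array 2 only.

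Values below are log2 levels of the processed signal relative to the 75th percentile of the same array, so a level of 0 equals that percentile. They may be compared between arrays for 1 probe, not between probes. Differences are siRNA-MEG3 minus siRNA-NC, fitted with limma over all 26348 tested probes, with Benjamini-Hochberg adjustment and a threshold of 0.05. Errors of differences are standard errors with n = 2 samples per group.

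C2C12 cells gave signal for the mesenchymal genes of the set and not for the epithelial ones. All 12 probes of Snai1, Snai2, Zeb1, Zeb2, Prrx1, Foxc2, Cdh2 and Cdh11 were well above background on all 6 arrays, while the probes of Cdh1 and Epcam were on none. No tested probe of the set passed the threshold, in either direction. Among the 10 tested probes the largest difference was in Cdh2, whose probe A_55_P2029711 was 1.96-fold higher with siRNA-MEG3 and did not pass (adjusted p = 0.132). A Prrx1 probe left out for flagged spots differed by more when those spots were kept, as given below.

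**Figure D1:**
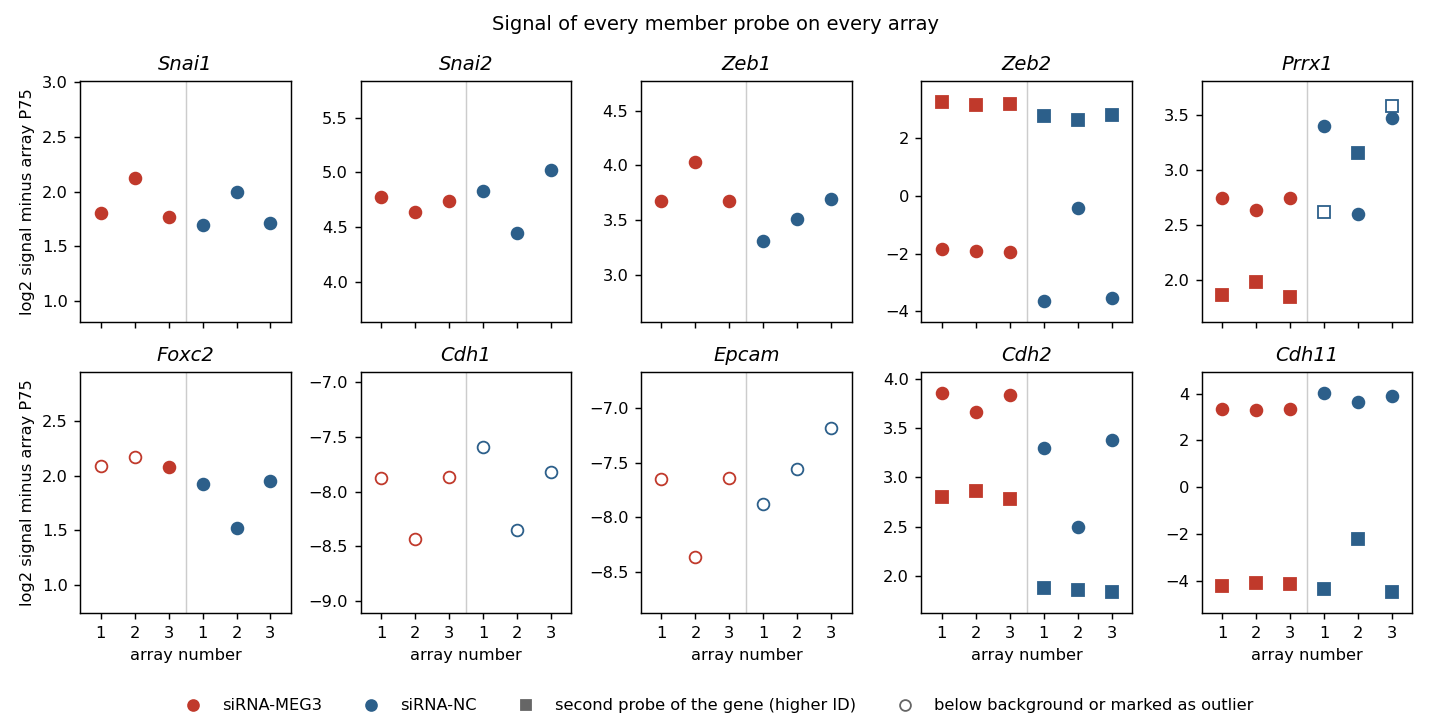
Log2 signal relative to the 75th percentile (P75) of the array, for every probe of the 10 genes on siRNA-MEG3 arrays 1 to 3 and siRNA-NC arrays 1 to 3. Each panel has its own vertical range, squares are the probe with the higher identifier where a gene has a pair, and open symbols mark spots below background or flagged as outliers. Cdh2 is higher on every siRNA-MEG3 array for both probes, and the low-signal probes of Zeb2 and Cdh11 are set apart by siRNA-NC array 2.

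Of the 14 probes, 10 entered the test, and they belonged to 7 of the 10 genes. Cdh1 and Epcam dropped out as dim, and Foxc2 and 1 of the 2 Prrx1 probes because flagged outlier spots left a sample without a value. Among the tested probes 0 of 10 were called in either direction, where 1.35% of all tested probes were called (0.994% higher and 0.361% lower). At an unadjusted p under 0.05 the count was 1 of 10, against 19.1% of all tested probes. The fold changes were positive for 7 probes and negative for 3, with a median of 0.11, beside 0.05 over all tested probes. The smallest difference that was called anywhere on the array was 1.81 on the log2 scale, and no tested probe of the set reached 1.

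Taking all 6 arrays as 6 samples, which counts near-identical arrays as separate replicates, called 2 of 10 probes higher and 1 lower, where 16.5% and 10% of all probes were called. Those were A_55_P2029711 of Cdh2, A_52_P596008 of Zeb2 and, lower, A_52_P437795 of Cdh11. With the replicate number added as a block the count was 1 higher, the same Cdh2 probe, where 8.31% of all probes were called higher. Averaging only siRNA-MEG3 arrays 1 and 3 gave that probe alone, where 4.97% were called higher.

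The Snail genes gave the smallest differences. Snai1 read 1.80, 2.12 and 1.77 on siRNA-MEG3 arrays 1 to 3, against 1.69, 2.0 and 1.71 on siRNA-NC arrays 1 to 3. In both groups array 2 was the highest, and the groups overlapped. The fitted difference was 0.10 ± 0.25 (95% interval -0.58 to 0.79, adjusted p = 0.875). Snai2, which encodes Slug, read 4.78, 4.64 and 4.74 on the siRNA-MEG3 arrays, against 4.82, 4.45 and 5.02 on the siRNA-NC arrays. The siRNA-MEG3 arrays lay within the siRNA-NC range, and the difference was 0.02 ± 0.26 (-0.69 to 0.72, adjusted p = 0.984). Its sign turned with siRNA-NC array 2 left out, at -0.22.

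The ZEB genes stood slightly higher with siRNA-MEG3, within the error of the comparison. Zeb1 read 3.68, 4.03 and 3.67 on the siRNA-MEG3 arrays, against 3.31, 3.51 and 3.70 on the siRNA-NC arrays. siRNA-MEG3 array 2 was the highest of all, siRNA-NC array 3 lay between the siRNA-MEG3 values, and the difference was 0.34 ± 0.24 (-0.29 to 0.98, adjusted p = 0.512). The Zeb2 probe A_52_P596008 read 3.25, 3.16 and 3.19 with siRNA-MEG3, against 2.78, 2.63 and 2.81 with siRNA-NC. All siRNA-MEG3 arrays were above all siRNA-NC arrays, and the difference was 0.48 ± 0.21, a 1.39-fold higher signal (log2 interval -0.09 to 1.05, adjusted p = 0.325).

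The other Zeb2 probe, A_52_P526372, carries the same RefSeq accession and gave another pattern. It read -1.84, -1.90 and -1.95 on the siRNA-MEG3 arrays, against -3.64, -0.43 and -3.54 on the siRNA-NC arrays. siRNA-NC array 2 was above all other arrays and siRNA-NC arrays 1 and 3 below them, so the fitted 0.12 ± 1.09 averaged opposite differences. Against siRNA-NC arrays 1 and 3 alone the siRNA-MEG3 mean was 1.69 higher, and against siRNA-NC array 2 alone it was -1.46. The processed signals of the 3 siRNA-MEG3 arrays were 336, 341 and 302, against 103, 1677 and 105 on the siRNA-NC arrays.

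Prrx1 leaned lower in the fit, and the size and sign of the difference depended on the control array. Probe A_55_P2131915 read 2.74, 2.64 and 2.74 on the siRNA-MEG3 arrays, against 3.41, 2.60 and 3.48 on the siRNA-NC arrays. siRNA-NC array 2 lay just below the siRNA-MEG3 arrays and the other siRNA-NC arrays above them. Against siRNA-NC array 2 alone the siRNA-MEG3 mean was 0.10 higher. The fitted difference was -0.33 ± 0.35 (-1.28 to 0.63, adjusted p = 0.690), and it was -0.75 without siRNA-NC array 2 (adjusted p = 0.125). The other Prrx1 probe, A_55_P2131920, was assigned to a different RefSeq transcript of the gene. It read 1.86, 1.98 and 1.84 with siRNA-MEG3, against 3.16 on siRNA-NC array 2, and its spots on siRNA-NC arrays 1 and 3 were flagged, so it had no test. With flagged spots kept it stood at -1.29 ± 0.20 (adjusted p = 0.0896), and the test on the authors' deposited values gave -1.25 ± 0.20 (adjusted p = 0.0965). Its flagged spots read 7899 and 14670 in processed signal on siRNA-NC arrays 1 and 3, against 20190 unflagged on siRNA-NC array 2.

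Foxc2 was flagged on siRNA-MEG3 arrays 1 and 2. It read 2.08 on siRNA-MEG3 array 3, against 1.92, 1.52 and 1.96 on the siRNA-NC arrays, and siRNA-NC array 2 was the lowest. With flagged spots kept the difference was 0.32 ± 0.25 (adjusted p = 0.569), and the test on the authors' deposited values gave 0.34 ± 0.19 (adjusted p = 0.405).

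Among the cadherins, both Cdh2 probes read higher with siRNA-MEG3. Probe A_55_P2029711 read 2.80, 2.87 and 2.78 on the siRNA-MEG3 arrays, against 1.88, 1.86 and 1.83 on the siRNA-NC arrays. Here siRNA-NC array 2 lay between the other control arrays, and the groups did not overlap. The means were 2.83 ± 0.05 with siRNA-MEG3 and 1.86 ± 0.0036 with siRNA-NC (SD, n = 2 samples each). The difference was 0.97 ± 0.20 (0.42 to 1.52, unadjusted p = 0.00744, adjusted p = 0.132 by limma), and 5.62% of all tested probes had a smaller p. Over the alternative settings its adjusted p ran between 0.00223 and 0.579. Against siRNA-NC arrays 1 and 3 and against siRNA-NC array 2 it was the same to 2 decimals, 0.97.

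The second Cdh2 probe gave a less even picture. Probe A_55_P2000133 read 3.85, 3.66 and 3.84 on the siRNA-MEG3 arrays, against 3.30, 2.49 and 3.38 on the siRNA-NC arrays. All siRNA-MEG3 arrays were above all siRNA-NC arrays, but siRNA-NC array 2 was far below its group. The difference was 0.84 ± 0.36 (-0.13 to 1.80, adjusted p = 0.313), made up of 0.41 against siRNA-NC arrays 1 and 3 and 1.26 against siRNA-NC array 2.

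Cdh11 ran the other way on its strong probe. A_52_P437795 read 3.36, 3.32 and 3.34 on the siRNA-MEG3 arrays, against 4.02, 3.62 and 3.91 on the siRNA-NC arrays, with no overlap between the groups. The difference was -0.46 ± 0.23 (-1.09 to 0.17, adjusted p = 0.385), or 0.727 of the siRNA-NC signal. The weak probe A_55_P2181356 read -4.21, -4.07 and -4.11 with siRNA-MEG3, against -4.32, -2.20 and -4.47 with siRNA-NC. There siRNA-NC array 2 was again far above every other array, and the fitted -0.82 ± 0.78 (adjusted p = 0.643) turned to 0.28 without it. The weak probes of Zeb2 and Cdh11 were 2 of the 188 probes on which siRNA-NC array 2 stood more than 4-fold above its group.

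**Figure D2:**
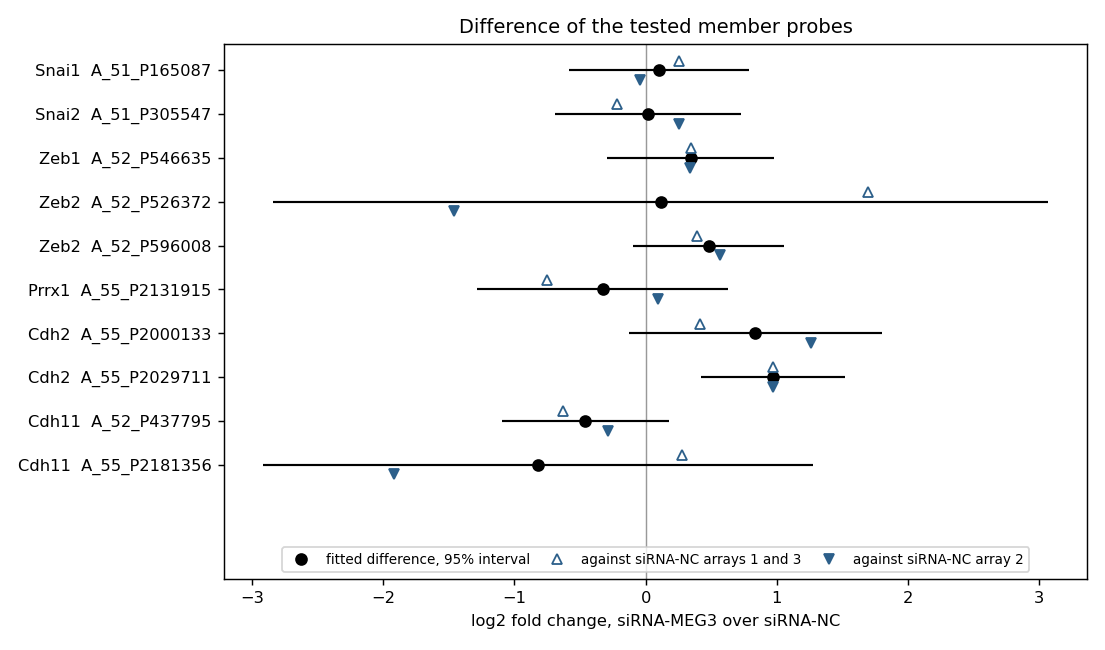
Log2 fold change of the 10 tested probes, siRNA-MEG3 over siRNA-NC, with the limma 95% interval (black), and the same siRNA-MEG3 mean set against siRNA-NC arrays 1 and 3 (open triangles) and against siRNA-NC array 2 (filled triangles). Only the interval of Cdh2 probe A_55_P2029711 lies clear of 0, before adjustment over all probes, and the triangles of 5 probes fall on opposite sides of 0.

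Over the 10 tested probes, 3 had all siRNA-MEG3 arrays above all siRNA-NC arrays, 1 had them below, and 6 overlapped. Across the array such separation was common, at 28.8% of probes above, 18.4% below and 47.2% in either direction. The differences against siRNA-NC arrays 1 and 3 and against siRNA-NC array 2 had the same sign for 5 of 10 probes, where 69.2% of all tested probes did.

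The epithelial genes of the set, Cdh1 and Epcam, were not measurable. The Cdh1 probe A_51_P137336 was printed 10 times, and the median processed signal of its spots was 4.90, 3.41 and 4.82 on the siRNA-MEG3 arrays, against 7.47, 9.74 and 5.20 on the siRNA-NC arrays. The weakest signal called well above background on each array was 21.8, 13.7 and 21.5 with siRNA-MEG3, against 15.7, 17.7 and 14.5 with siRNA-NC. Of all these spots 2 were well above background, both on siRNA-NC array 2 and both flagged as outliers. Epcam read 5.97, 3.85 and 5.84 on the siRNA-MEG3 arrays, against 5.45, 12 and 8.40 on the siRNA-NC arrays, none well above background. No fold change is given for either gene, and a difference in either was not detectable at this signal.

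Some spots lay in darker patches of the siRNA-MEG3 arrays, defined as tiles of 30 by 17 spots where more than 5% lay over 4-fold under the siRNA-NC signal. Such tiles held 21.6, 5.95 and 20.5% of the spots on siRNA-MEG3 arrays 1 to 3. On arrays 1 and 3 they took in the spots of Snai1, Snai2, Zeb2 probe A_52_P596008 and Cdh2 probe A_55_P2000133, and on array 2 those of Snai2, Foxc2 and Cdh11 probe A_52_P437795. Of the 10 Cdh1 spots, 3 lay in such tiles on each of arrays 1 and 3 and 1 on array 2. The spot of Cdh2 probe A_55_P2029711 was outside them on all 3 arrays. What part the patches have in these levels was not tested.

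Other EMT transcription factors likewise had no call. Of 10 genes, 6 were tested with 8 probes, none passed, and the median difference was -0.04. Twist2, a bHLH repressor of mesenchyme, stood at -0.56 ± 0.22 (adjusted p = 0.282). Tcf3, which encodes E-proteins, stood at -1.93 ± 0.80 on a weak probe that cleared background on a single siRNA-MEG3 array, and at 0.05 ± 0.28 on its other probe. Prrx2, the paralogue of Prrx1, stood at -0.13 ± 0.28.

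Factors that hold cells epithelial were mixed and none passed. Of 11 genes 6 were tested, with a median of -0.06, and Ovol1, Elf3 and Elf5 were never well above background. Klf5, a Krüppel-like factor of epithelia, stood at 1.95 ± 0.40 (adjusted p = 0.126), Grhl1, a grainyhead factor, at 1.31 ± 0.26 (adjusted p = 0.125), and Klf4 at -0.06 ± 0.20.

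Of the other 16 cadherin genes 7 were tested. None was called higher and 1 was called lower, where 0.994% and 0.361% of all tested probes were. The gene called lower was Cdh20, a type II cadherin. It passed the background test on each siRNA-NC array and failed it on each siRNA-MEG3 array. It was tested only because of its siRNA-NC signal. The adjusted p of 0.0416 belongs to a fitted difference that used siRNA-MEG3 values not above background. No size is given in the text for that fitted difference, as Cdh20 was not above background with siRNA-MEG3. With normexp background correction its sign turned, to 1.69, and to 0.01 with speck spots left out (adjusted p = 0.553 and 0.990). Over all 19 alternatives its adjusted p ran from 0.00186 to 0.990. It missed the threshold without siRNA-NC array 1 (adjusted p = 0.0536), array 2 (0.123) or array 3 (0.0518), with the replicate number as a block in the 4-sample fit (0.0718), with quantile normalization (0.118), with no filter on dim probes (0.118) and on the authors' deposited values (0.0833). Cdh15, the M-cadherin gene of myoblasts, stood at 1.41 ± 0.24 (adjusted p = 0.0954), and Cdh13, the gene of the membrane-anchored T-cadherin, at 1.06 ± 0.42 (adjusted p = 0.289). The median of the tested cadherin probes was 0.26, with Cdh20 and Cdh22 included. Cdh22 likewise was above background on every siRNA-NC array and on no siRNA-MEG3 array, and it did not pass (limma adjusted p = 0.138). Cdh10 was tested only because of its siRNA-MEG3 signal. The difference between Cdh2 or Cdh15 and the other cadherins was not tested.

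Catenins, which bind the cytoplasmic ends of cadherins, and nectins and other junction genes had no call. Of 15 such genes 9 were tested with 11 probes, none passed, and the median was 0.26. The value was above 0 for 9 probes and below 0 for both probes of Nectin2, at -0.38 ± 0.33 and -0.04 ± 0.29. Vcl, the gene of the actin-binding protein vinculin, stood at 0.81 ± 0.24 (adjusted p = 0.199) on one probe and 0.26 ± 0.89 on the other. Nectin3 stood at 0.56 ± 0.26 (adjusted p = 0.337), and Ctnna1, the gene of alpha-catenin, at 0.26 ± 0.21. Cofactors through which Snail and ZEB factors repress had a median of -0.03 over 10 tested probes and none passed. Among them Ajuba stood at 0.65 ± 0.23 (adjusted p = 0.250), the deacetylase gene Hdac2 at -0.40 ± 0.23 and the methyltransferase gene Ehmt2 at -0.14 ± 0.28.

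**Figure D3:**
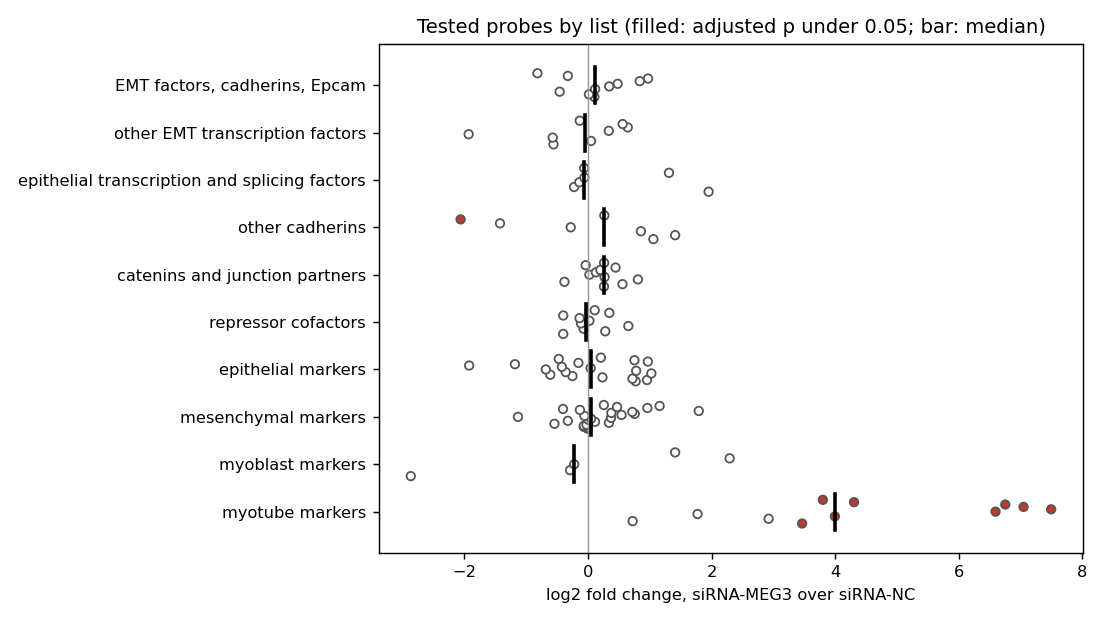
Log2 fold change, siRNA-MEG3 over siRNA-NC, of every tested probe in each gene list, with filled points for an adjusted p under 0.05 and a bar at the median. The EMT factors and cadherins have a median of 0.11, near the 0.05 of all tested probes, while the myotube markers have a median of 3.99.

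State markers on both sides had no call. Of 26 epithelial markers 18 were tested, with a median of 0.04 over 19 probes. The keratin gene Krt7 was not well above background with siRNA-MEG3 and was tested only because of its siRNA-NC signal. Its fitted difference did not pass (adjusted p = 0.135), and no size is given for it in the text. Spint1 stood at 1.02 ± 0.27 (adjusted p = 0.176). Its other probe, at -0.16, is the one that cleared background on a single siRNA-MEG3 array. The plakophilin gene Pkp3 stood at 0.97 ± 0.26 (adjusted p = 0.176). The summed signal of the epithelial probes, each relative to its array's 75th percentile, was 39.9 to 42.1 on siRNA-MEG3 arrays and 20.7 to 24.7 on siRNA-NC arrays. Pkp3 alone made up 78.0 to 78.6% of it on siRNA-MEG3 arrays and 65.8 to 77.2% on siRNA-NC arrays, and without Pkp3 the sum was 8.55 to 9.27 on siRNA-MEG3 arrays and 5.62 to 7.08 on siRNA-NC arrays. Such sums weight bright probes most and rank no probe, and Krt18, Cldn3, Dsc2 and Marveld2 were never well above background. Of 20 mesenchymal markers 19 were tested, with a median of 0.05 over 25 probes and a summed signal of 1140 to 1198 on siRNA-MEG3 arrays and 959 to 1399 on siRNA-NC arrays. The matrix gene Sparc stood at -1.13 ± 0.30 (adjusted p = 0.176) with -0.06 on its other probe, and the collagen gene Col3a1 stood at -0.02 ± 0.29.

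The set stands beside a large difference in differentiation. All 8 myotube marker genes were tested with 11 probes, all were positive, and the median was 3.99. Of these, 8 probes of 5 genes were called higher, where 0.994% of all tested probes were. Embryonic myosin Myh3 rose by 6.75 ± 0.33 and 7.05 ± 0.54 on its probes, the myosin light chain gene Myl1 by 6.59 ± 0.32, the troponin gene Tnnt3 by 4.30 ± 0.22 and 3.99 ± 0.21 on its probes, the fusion gene Mymx by 3.80 ± 0.30 and Myog, the factor that starts terminal differentiation, by 3.46 ± 0.22 (adjusted p from 0.0187 to 0.0266). The other Myl1 probe was below background on all siRNA-NC arrays and was tested only because of its siRNA-MEG3 signal. It was at least 64.9-fold higher with siRNA-MEG3. All 8 called probes missed the threshold with no filter on dim probes (limma adjusted p from 0.0529 to 0.0688). They also missed it with normexp (0.553), and passed with normexp where speck spots were left out (0.00483 to 0.00868). Without siRNA-NC array 2, which left 1 siRNA-NC sample, the called probes missed the threshold too. Their differences then ran from 3.47 (Mymx) to 6.36 (Myh3 probe A_55_P2083406), among those given a size above. The actin gene Acta1 stood at 0.72 ± 0.22 (adjusted p = 0.199). The summed signal of the myotube probes was 62.2 to 68.2 on siRNA-MEG3 arrays and 7.62 to 9.03 on siRNA-NC arrays. Myl1 probe A_51_P416858 made up 38.5 to 40.5% of it on siRNA-MEG3 arrays. Without that probe the sum was 38.3 to 40.6 on siRNA-MEG3 arrays and 7.30 to 8.78 on siRNA-NC arrays. Acta1 alone was above a level of 0 on siRNA-NC arrays, at 2.93, 2.95 and 2.61. The part of differentiation in the Cdh2, Cdh11 and Prrx1 values was not tested. In RNA from whole cultures a change in the number of fused cells and a change in RNA per cell cannot be told apart.

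All 5 myoblast markers were well above background on the siRNA-NC arrays. So were the tested endothelial and immune probes, so this flag alone does not identify the labelled cell line. None of the 5 myoblast markers passed the threshold, and their values lay on both sides of 0. Myf5, a determination factor of dividing myoblasts, stood at -2.87 ± 0.41 (adjusted p = 0.0729), while Myod1, the other determination factor of the list, stood at 2.29 ± 0.43 (adjusted p = 0.113) and Cdh15 at the value given above. Des, the gene of the filament protein desmin, stood at -0.22 ± 0.59. Pax7, a satellite cell factor, stood at -0.29 ± 0.94 on a probe that cleared background on a single siRNA-MEG3 array. Fibroblast markers, of which Thy1 and Col1a1 also stand in the mesenchymal list, gave no call (5 of 6 tested, median 0.10), with Pdgfra at -0.67 ± 0.25, Col1a1 at 0.72 ± 0.34 and a summed signal of 155 to 178 on siRNA-MEG3 arrays and 93.9 to 142 on siRNA-NC arrays. Without Col1a1 that sum was 35.6 to 37.5 on siRNA-MEG3 arrays and 35.0 to 38.6 on siRNA-NC arrays. Endothelial markers summed to 0.972 to 1.35 on siRNA-MEG3 arrays and 0.944 to 1.00 on siRNA-NC arrays, and immune markers to 0.0449 to 0.126 on siRNA-MEG3 arrays and 0.0846 to 0.110 on siRNA-NC arrays, with no call in either list. Kdr stood at -0.73 ± 0.20 and 0.15 ± 0.21 on its probes, Pecam1 at 0.34 ± 0.86, Ptprc at -0.29 ± 0.53 and Adgre1 at -0.33 ± 0.63. The Ptprc probe cleared background on a single siRNA-MEG3 array and was tested only because of its siRNA-NC signal.

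**Figure D4:**
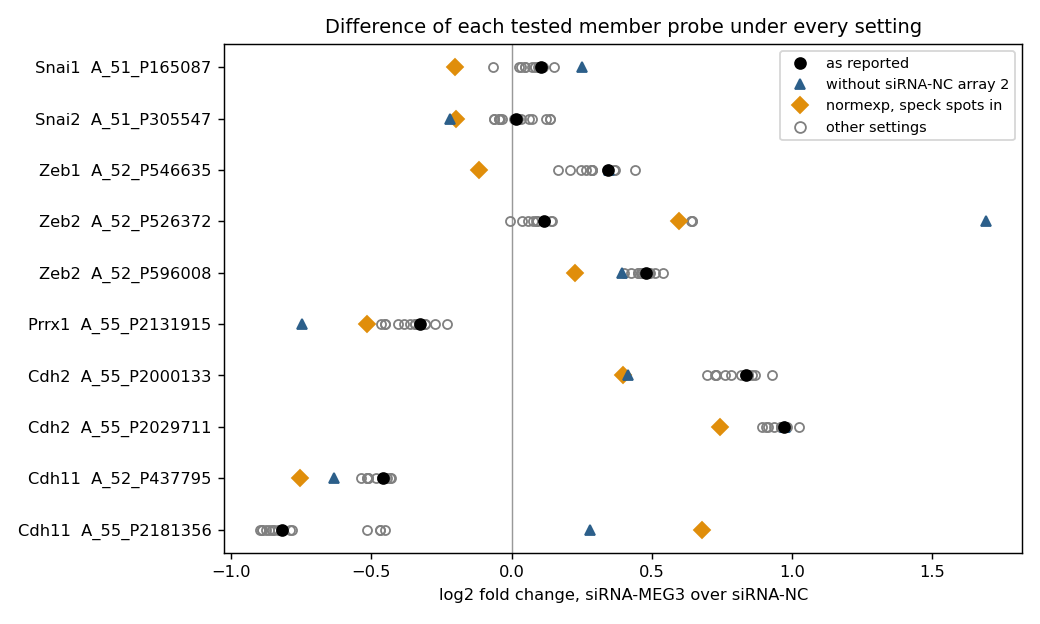
Log2 fold change of the 10 tested probes, siRNA-MEG3 over siRNA-NC, as reported (black), without siRNA-NC array 2 (blue triangles), with normexp background correction while speck spots stayed in (orange diamonds) and under the other settings (open circles). Both Cdh2 probes stay above 0 and Prrx1 and Cdh11 probe A_52_P437795 below 0 in every setting, while Snai1, Snai2, Zeb1 and the weak probes of Zeb2 and Cdh11 cross it in at least 1 setting.

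Across the settings tried, the size of the Cdh2 difference ranged from 0.74 to 1.02 for A_55_P2029711 and from 0.40 to 0.93 for A_55_P2000133. Cdh11 probe A_52_P437795 ranged from -0.75 to -0.43, Prrx1 probe A_55_P2131915 from -0.75 to -0.23, and Zeb2 probe A_52_P596008 from 0.22 to 0.54. Snai1 ranged from -0.20 to 0.25, Snai2 from -0.22 to 0.14 and Zeb1 from -0.12 to 0.44.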

How the data were processed

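Agilent Feature Extraction 11.0.1.1 wrote the deposited array files, per the file headers. They give each spot, per the file headers, a processed signal intensity, background-subtracted and detrended within its array, a median and a local background intensity, and 0-or-1 marks (other values) for signal well above background and for outliers. The authors also deposited log2 values for 30732 probes; their column medians were 8.11 and they followed the log2 processed signal (r from 0.9991 to 0.9997), so the scale is log2 and the between-array step stays unknown. The labels' protocol averages repeated probes and takes a normalization factor from intensities of at least 30 in all samples.

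Outlier spots were left out, replicate spots averaged, and the log2 processed signal of an array set relative to its 75th percentile. A probe entered the test if every usable array of one group or the other passed the background flag and all 4 samples had a value. limma 3.58.1 (R 4.3.3) was fitted with group as the only term (2 residual degrees of freedom, prior 2.31), tested on simulated data first. RefSeq accessions (GRCm38.p6) named 27234 of 39429 probes. No spot was saturated, and the number of arrays limits the precision.

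The members, lists and settings were chosen with earlier results of these data known. All probes of the 10 genes are named. Of each other list, called genes, those of the 2 smallest p-values and the brightest gene are named, except 1 gene not reported here, and genes never above background are listed beside some lists. Shared replicate numbers did not pair the arrays: deviations of same-numbered arrays correlated at -0.03, -0.04 and -0.03. The effect of 19 alternatives is in the closing section, and averaging all siRNA-MEG3 arrays was added after the data were seen.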

Additional observations from a re-analysis of the deposited data

How the results depend on the processing

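The signs of Cdh2, Zeb2 probe A_52_P596008, Prrx1 probe A_55_P2131915 and Cdh11 probe A_52_P437795 held in all settings that gave them a value. No setting took siRNA-NC array 2 as the only control, against which Prrx1 probe A_55_P2131915 stood at 0.10. Of 187 values of the tested probes, 168 kept sign and side of the threshold, 14 changed sign and 5 newly passed. The main counts were 262 probes higher and 95 lower, with 0 and 0 in the set. As 6 samples the arrays gave 4320 and 2616, with 2 and 1 in the set (Cdh2 adjusted p = 0.00223, Zeb2 0.0274, Cdh11 0.0403). With the replicate number as a block, the 6-sample fit gave 2176 and 1447, with 1 higher in the set (Cdh2, adjusted p = 0.0281; 8.31% of all probes were higher). As 5 samples they gave 1307 and 943, with 1 higher in the set (Cdh2, 0.0245; 4.97% of all). Near-identical arrays shrink the spread in these fits by construction. The block in the 4-sample fit changed no call in the set (189 and 72 over all probes). With the siRNA-MEG3 arrays as 1 sample, added after the data were seen, the counts were 551 and 752. The lone sample is then assumed to vary like siRNA-NC. No filter gave 0 and 0 (5273 at an unadjusted limma p under 0.05), and so did normexp with an offset of 50 (1081). Leaving out each array gave 0 to 998 higher and 0 to 1742 lower over all probes, and 0 and 0 in the set. The ends come from siRNA-NC array 2 (0 and 0, with 8423 at an unadjusted p under 0.05) and siRNA-MEG3 array 2 (998 and 1742), where a lone sample is assumed to vary like the other group. Higher calls were 73.4% of all calls, and 62.3, 60.1 and 58.1% in the 6-sample, blocked 6-sample and 5-sample fits, 36.4% without siRNA-MEG3 array 2 and 42.3% with siRNA-MEG3 as 1 sample.

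Normexp moved the median of all probes to 0.62, and to 0.17 with the 18 spots under a bright speck on siRNA-MEG3 array 2 left out. With the speck in, Snai1 (-0.20), Snai2 (-0.20), Zeb1 (-0.12) and Cdh11 probe A_55_P2181356 (0.68) changed sign. Snai2 also turned with 6 samples (-0.044, also with the block), 5 samples (-0.064), the labels' factor (-0.040) and outlier spots kept (-0.062). Zeb2 probe A_52_P526372 turned with the authors' deposited values (-0.0048). Leaving out arrays put Snai1 between -0.067 and 0.25, Snai2 between -0.22 and 0.074 and Cdh11 probe A_55_P2181356 between -0.87 and 0.28, and the cause was not tested.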
